A study of Homo sapiens with 6 samples.

Results

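Voltage-gated calcium, sodium and HCN channel genes were followed in HEK293T cells treated with valproic acid (VPA). The members were all genes whose symbols name a calcium channel subunit (CACNA1, CACNA2D, CACNB and CACNG series), a sodium channel subunit (SCN series ending in A or B) or an HCN channel. They numbered 44 of the 47470 genes listed, with 24 genes for pore-forming subunits (CACNA1, SCN genes ending in A, HCN) and 20 for auxiliary subunits (CACNA2D, CACNB, CACNG, SCN genes ending in B). RNA was sequenced from 3 libraries of wild-type cells kept in plain medium and from 3 libraries of cells exposed to 1 mM VPA for 1 day. HEK293T derives from human embryonic kidney and expresses the large T antigen of SV40, and VPA is a histone deacetylase inhibitor and an antiseizure drug. All libraries came from this single line, and no label says whether the replicates were separate cultures, so p-values measure the spread between these libraries.

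Voltage-gated calcium and sodium channels open when the membrane is depolarised and carry the inward currents that start, shape and transmit action potentials. HCN channels open on hyperpolarisation, bind cyclic nucleotides and carry the pacemaker current of heart and neurons. In each calcium or sodium channel a large pore-forming protein carries the ion pathway and the voltage sensors. Auxiliary subunits (alpha2delta, beta and gamma for calcium channels, beta for sodium channels) set the trafficking and gating of many of these pores, not of all. Sodium channels and T-type calcium channels are textbook targets of VPA as an antiseizure drug, and these libraries measure their RNA only.

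Reads on genes totalled 18622267 to 18828495 per library, so depth differed little. Genes with at least 1 read numbered 20719 to 20916 in untreated and 22279 to 22425 in VPA-treated libraries. Normalized counts are read counts scaled with TMM factors to the mean library. Over 15298 genes that passed a filter on low counts, edgeR's quasi-likelihood test was applied with Benjamini-Hochberg adjustment. Genes were called up-regulated when the adjusted p was under 0.05 and the log2 fold change reached 1, which are the study's thresholds. None of the 845 protein-coding genes of chromosome X that are listed had a read, so CACNA1F, on chromosome X, gives no information here.

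Of 9 kidney lineage markers 8 were tested, among them LHX1, EYA1, KRT8 and VIM, and PAX8 was at or near 0 in both conditions. PAX2, CDH1 and KRT8 were up-regulated, and 3 markers, EYA1 and VIM among them, were lower. Markers of other cell types moved with the treatment. Over all tested genes 12% were up-regulated, and 29.1% of those with a mean under 100 normalized counts. Of 13 neuron markers 8 were tested and 7 were up-regulated, their summed level going from 676 to 718 normalized counts in untreated libraries to 1764 to 1800 in VPA-treated ones, with SLC17A6 at 0 and ELAVL3 and ELAVL4 near 0. Of 11 striated muscle markers 4 were tested and 3 were up-regulated (summed level 187 to 227 against 354 to 408, MYH1 at 0 and MYOG and TNNT2 near 0). These 3, MYOD1, TTN and RYR1, passed the filter on low counts through the VPA-treated libraries alone and so had to differ, as did SNAP25 among the neuron and AQP4 among the glia markers. Of 6 glia markers 5 were tested and 4 were up-regulated (218 to 237 against 489 to 511, SOX10 at 0). Of 5 blood and endothelium markers 1 was tested and up-regulated, CD34. The summed level of the 5 markers was 13.5 to 23.01 against 62.5 to 70.8, with HBB and PECAM1 near 0. In bulk RNA, more cells of a type and more RNA per cell cannot be told apart, and the part of these markers in the channel results was not tested.

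Promoter windows are shown for 4 members to set the range of promoter types side by side. They are the 250 bases before the RefSeq start on GRCh38.p14, 5′ to 3′ on the strand of the gene, with CpG dinucleotides in capitals. CACNA1B (chr9:137877532-137877781, plus strand), CACNA1I (chr22:39570503-39570752, plus strand) and SCN2B (chr11:118176640-118176889, minus strand) are shown as up-regulated members with 39, 3 and 0 CpG. CACNA2D1 (chr7:82443957-82444206, minus strand), with 27 CpG, is shown as the only tested member lower at an adjusted p under 0.05.
CACNA1B: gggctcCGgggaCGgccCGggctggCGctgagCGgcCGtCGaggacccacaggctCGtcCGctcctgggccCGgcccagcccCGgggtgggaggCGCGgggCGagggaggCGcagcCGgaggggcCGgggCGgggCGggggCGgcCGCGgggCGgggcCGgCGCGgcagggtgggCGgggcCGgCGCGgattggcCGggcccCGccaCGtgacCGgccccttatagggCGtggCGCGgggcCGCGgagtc
CACNA1I: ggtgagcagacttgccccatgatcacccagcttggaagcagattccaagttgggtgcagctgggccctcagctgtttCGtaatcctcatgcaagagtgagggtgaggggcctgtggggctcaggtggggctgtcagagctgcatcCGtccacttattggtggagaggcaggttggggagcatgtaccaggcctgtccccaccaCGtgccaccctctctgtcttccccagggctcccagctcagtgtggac
SCN2B: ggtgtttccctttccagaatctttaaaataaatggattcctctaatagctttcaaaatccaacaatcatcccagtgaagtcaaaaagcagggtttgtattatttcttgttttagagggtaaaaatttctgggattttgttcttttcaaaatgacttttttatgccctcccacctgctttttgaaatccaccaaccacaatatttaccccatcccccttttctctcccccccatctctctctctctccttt
CACNA2D1: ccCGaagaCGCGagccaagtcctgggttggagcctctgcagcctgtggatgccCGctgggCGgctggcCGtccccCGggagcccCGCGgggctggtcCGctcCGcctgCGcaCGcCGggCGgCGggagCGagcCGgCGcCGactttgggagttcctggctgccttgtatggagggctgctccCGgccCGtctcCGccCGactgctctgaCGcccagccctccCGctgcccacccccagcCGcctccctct

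VPA-treated cells had more RNA for most of the channel subunit genes that could be tested, and the increases were spread over both classes. Of the 44 members 32 were tested, 17 were up-regulated and none was down-regulated, where 12% of all tested genes were up-regulated and 0.503% down-regulated. A further 12 were higher at an adjusted p under 0.05 with a smaller change, 1 was lower (CACNA2D1) and 2 did not pass (CACNB4 and SCN11A). Among all tested genes 32.9% were higher and 30% lower at that threshold. Every VPA-treated library lay above every untreated library for 30 of the 32 tested members, against 34.8% of all tested genes, and below it for CACNA2D1, against 31%. Of these 30, SCN1A, SCN3A, CACNA1I and CACNG7 passed the filter on low counts through the VPA-treated libraries alone, so they had to differ. They are also among the members higher at an adjusted p under 0.05. The absence of down-regulated members held with DESeq2 as well, and in edgeR 1 member was lower at an unadjusted p under 0.05, again CACNA2D1.

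By class, 10 of the 17 tested pore-forming genes and 7 of the 15 tested auxiliary genes were up-regulated. The median log2 fold changes were 1.25 and 0.97. The median over all tested genes was 0.0058. SCN1A, SCN3A, CACNA1I and CACNG7 passed the filter on low counts through the VPA-treated libraries alone, so they had to differ. Without these 4 the counts were 7 of 14 pore-forming and 6 of 14 auxiliary genes, with medians of 1.00 and 0.90, where 8.99% of genes that passed in at least 1 untreated library were up-regulated. The difference between the classes was not tested, since genes are not replicates.

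**Figure D1:**
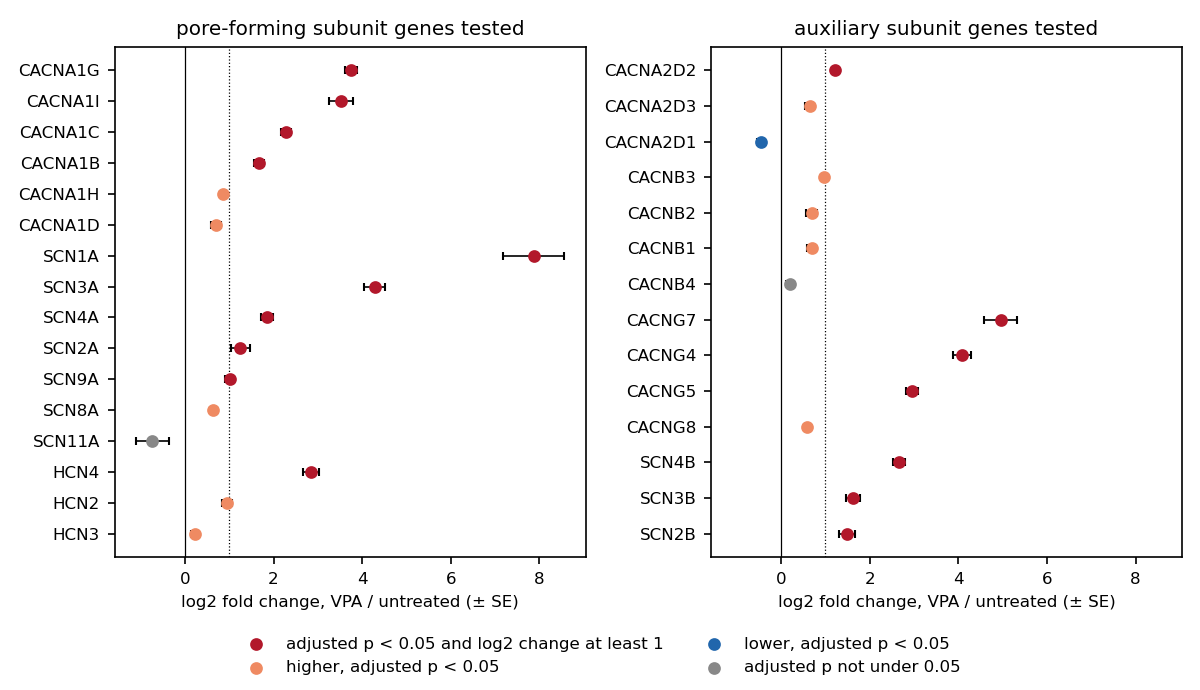
Log2 fold change of VPA-treated against untreated cells for the tested pore-forming (left) and auxiliary (right) subunit genes described, with bars for the standard error and a dotted line at the threshold of 1. All but CACNA2D1 and SCN11A lie above 0, and SCN1A, CACNG7, SCN3A and CACNG4 lie farthest from it.

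Among the calcium channel pores, the T-type genes CACNA1G and CACNA1I and the L-type gene CACNA1C showed the largest differences. CACNA1G (chr17:50560715-50627474) had 51.7, 29.3 and 41.96 normalized counts in untreated and 616, 530.2 and 513 in VPA-treated libraries. These values did not overlap, and the log2 fold change was 3.75 ± 0.13 (SE, n = 3 each, adjusted p = 1.91e-15, edgeR quasi-likelihood test). CACNA1I, a T-type channel mostly of neurons, had 3.10, 4.18 and 9.44 in untreated and 65.1, 63.5 and 67.0 in VPA-treated libraries. The few untreated reads left a wide error, with a log2 fold change of 3.52 ± 0.27 (SE, adjusted p = 2.47e-10, edgeR). CACNA1I passed the filter on low counts through the VPA-treated libraries alone, so it had to differ. CACNA1H, the T-type gene with the most reads of all members, had 858, 774 and 756 in untreated and 1602, 1388 and 1346 in VPA-treated libraries. It was higher in every VPA-treated library but under the fold threshold, at 0.86 ± 0.065 (SE, adjusted p = 8.15e-10, edgeR).

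The L-type gene CACNA1C (chr12:1970780-2697950), which encodes the main pore of cardiac and smooth muscle calcium current, had 61.0, 43.9 and 62.9 normalized counts in untreated and 278.5, 282 and 255 in VPA-treated libraries. Its log2 fold change was 2.28 ± 0.12 (SE, n = 3 each, adjusted p = 4.39e-13, edgeR), with no overlap between conditions. CACNA1B, the N-type pore of presynaptic terminals, had 65.2, 70.1 and 72.4 in untreated and 234.5, 224 and 203 in VPA-treated libraries. It was called at 1.67 ± 0.11 (SE, adjusted p = 2.66e-11, edgeR). The L-type gene CACNA1D was higher by less, at 0.70 ± 0.11 (SE, adjusted p = 1.83e-05, edgeR). It shares 1399 exonic bases with CHDH on the opposite strand, which had means of 980.1 and 900.2 normalized counts, and the strand setting of the counting is not given in the sources used here.

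The other CACNA1 genes were too low to test. CACNA1A, the P/Q-type pore of fast synapses, had 3 reads over the untreated and 13 over the VPA-treated libraries. CACNA1E (R-type) had 2 and 15, and CACNA1S, the skeletal muscle L-type pore, had 9 and 33. CACNA1S overlapped between conditions, while CACNA1A and CACNA1E had more normalized counts in each VPA-treated than in each untreated library. With no filter on low counts, edgeR called CACNA1E (log2 fold change 2.56, adjusted p = 0.0132) and CACNA1S (1.69, adjusted p = 0.00375) up-regulated and CACNA1A not (adjusted p = 0.0766), and DESeq2 called none of them (adjusted p = 0.0954, 0.0658 and 0.217).

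Per kilobase of transcript, the CACNA1 family became less dominated by a single gene. CACNA1H made up 76.1% to 78.9% of the summed CACNA1 level in untreated and 56.7% to 57.5% in VPA-treated libraries, while the share of CACNA1G went from 2.85% to 4.52% up to 20.7% to 21.1%. The T-type genes together made up 82.1% ± 1.1 and 79.9% ± 0.52 (SD, n = 3 each), a small difference without overlap. L-type genes made up 12.1% ± 0.67 and 12.5% ± 0.43, their ranges overlapping. The largest changes in share were thus those of CACNA1H and CACNA1G, both T-type. Shares within a library do not depend on how libraries are scaled.

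**Figure D2:**
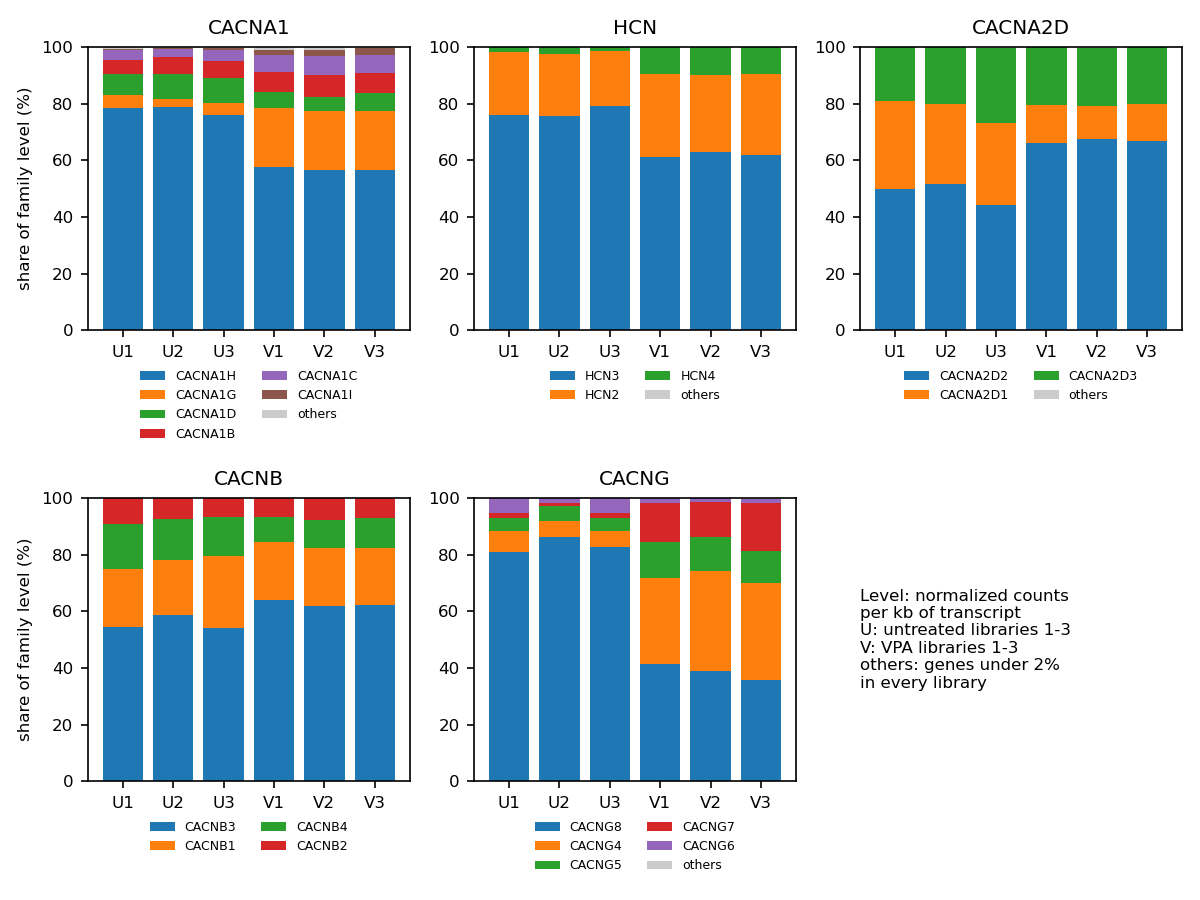
Share of each gene in the summed level of its family, for the calcium channel and HCN families (normalized counts per kb of transcript, in %) in untreated libraries 1 to 3 (U1 to U3) and VPA-treated libraries 1 to 3 (V1 to V3). CACNA1H gives way to CACNA1G in the CACNA1 family, and CACNG8 to CACNG4 and CACNG7, while CACNA2D2 gains on CACNA2D1.

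Among the sodium channel pores, SCN1A and SCN3A showed the largest differences and had the lowest untreated levels of the 8 tested. Both passed the filter on low counts through the VPA-treated libraries alone, so they had to differ. SCN1A, a pore of inhibitory neurons whose loss causes epilepsy, had no read in any untreated library and 30.6, 25.98 and 30.6 normalized counts in VPA-treated libraries (adjusted p = 7.19e-09, edgeR). Against a floor of 3 reads per untreated library it was at least 9.29-fold higher. Its fitted log2 fold change of 7.87, the largest of all 15298 tested genes, rests on the prior count and was 3.96 with a prior count of 2. SCN3A, the pore of embryonic neurons, had 6.21, 2.09 and 6.29 in untreated and 92.9, 98.2 and 99.5 in VPA-treated libraries. That is a log2 fold change of 4.28 ± 0.24 (SE, n = 3 each, adjusted p = 1.97e-12, edgeR), from few untreated reads. SCN2A, the pore of excitatory axons, had 24.8, 14.6 and 25.2 in untreated and 46.9, 50.04 and 57.4 in VPA-treated libraries, with a log2 fold change of 1.25 ± 0.21 (SE, adjusted p = 2.33e-05, edgeR). With the threshold placed inside the test (glmTreat) SCN2A was not called.

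SCN4A, the skeletal muscle pore, had 48.6, 61.7 and 43.0 normalized counts in untreated and 181, 199 and 175 in VPA-treated libraries. Its log2 fold change was 1.85 ± 0.13 (SE, n = 3 each, adjusted p = 6.64e-11, edgeR). SCN9A, a pore of peripheral sensory neurons, had 106, 114 and 130.1 in untreated and 232, 217 and 255 in VPA-treated libraries. It lay on the threshold at 1.01 ± 0.10 (SE, adjusted p = 2.83e-08, edgeR), and the fold call was lost with DESeq2 at 0.99. SCN8A, a pore of the axon initial segment and nodes, was higher by 0.64 ± 0.079 (SE, adjusted p = 4.13e-07, edgeR).

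SCN11A, a pore of pain-sensing neurons, was the one tested pore-forming gene that did not pass. It had 10.4, 13.6 and 14.7 normalized counts in untreated and 6.70, 4.81 and 11.5 in VPA-treated libraries, which overlap, and its log2 fold change was -0.74 with a 95% interval of -1.505 to 0.032 (adjusted p = 0.0879, edgeR). Without VPA replicate 3 it was called down-regulated, at -1.14 (adjusted p = 0.0303, edgeR). SCN10A was listed at 0 in all libraries, and SCN7A, a sodium-sensing relative, had 1 read over the untreated and 13 over the VPA-treated libraries. With no filter SCN7A was called up-regulated by edgeR (log2 fold change 3.16, adjusted p = 0.00966) and not by DESeq2 (adjusted p = 0.0617).

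HCN genes split by level. HCN4, the main pacemaker channel of the sinoatrial node, had 14.5, 18.8 and 11.5 normalized counts in untreated and 110.1, 104 and 110.0 in VPA-treated libraries. Its log2 fold change was 2.84 ± 0.18 (SE, n = 3 each, adjusted p = 1.26e-11, edgeR), without overlap. HCN3 had the highest level per kilobase of the family, with 340.4, 315 and 352.5 in untreated and 398, 373 and 399 in VPA-treated libraries. Its small difference of 0.22 ± 0.071 (SE, adjusted p = 0.0114, edgeR) did not hold with DESeq2 (adjusted p = 0.115) or without untreated replicate 2 (adjusted p = 0.0835, edgeR). HCN2 was higher by 0.95 ± 0.12 (SE, adjusted p = 3.06e-07, edgeR). HCN4 went from 1.91% ± 0.54 to 9.54% ± 0.16 (SD, n = 3 each) of the family level per kilobase.

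The auxiliary genes held the single decrease at an adjusted p under 0.05, CACNA2D1. They also held CACNG4, with the largest increase (4.08) among members that passed the filter in at least 1 untreated library. Alpha2delta subunits are extracellular proteins that bring calcium channels to the surface, and CACNA2D1 and CACNA2D2 bind gabapentin. CACNA2D1 (chr7:81946444-82443956) had 450.0, 403 and 406 normalized counts in untreated and 317, 282 and 312 in VPA-treated libraries. It fell by 0.47 on the log2 scale, with an SE of 0.074 (n = 3 each; adjusted p = 1.22e-05, edgeR), and each VPA-treated library lay below each untreated one. CACNA2D2 had 540.0, 551 and 468 in untreated and 1169, 1240 and 1208 in VPA-treated libraries, a log2 fold change of 1.21 ± 0.060 (SE, adjusted p = 1.85e-13, edgeR). These close relatives thus moved in opposite directions. CACNA2D2 went from 48.5% ± 3.8 to 66.9% ± 0.73 of the family level per kilobase and CACNA2D1 from 29.6% ± 1.5 to 12.7% ± 1.0 (SD, n = 3 each). CACNA2D3 was higher by 0.65 ± 0.10 (SE, adjusted p = 1.23e-05, edgeR), and CACNA2D4 had 3 and 10 reads in the 2 conditions.

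Beta subunits are cytoplasmic proteins that bind the calcium channel pore and help it to the membrane, and none of the 4 was up-regulated. CACNB3, with the highest level per kilobase of the family, had 240.0, 261.5 and 246.5 normalized counts in untreated and 527, 455 and 480.1 in VPA-treated libraries. Its log2 fold change of 0.97 ± 0.076 (SE, n = 3 each, adjusted p = 3.69e-10, edgeR) fell short of the threshold. CACNB1 and CACNB2 were higher by 0.69 each (adjusted p = 1.19e-05 and 8.08e-05, edgeR). CACNB4, the beta subunit best known from cerebellum, had 192, 174 and 170 in untreated and 202, 194 and 220.0 in VPA-treated libraries. Its log2 fold change was 0.20 with a 95% interval of 0.0095 to 0.39 (adjusted p = 0.0627, edgeR), and the replicate number as a block gave an adjusted p of 0.0384.

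Of the 4 tested gamma genes 3 were up-regulated, against 12% of all tested genes and 29.1% at means under 100 normalized counts. Most gamma proteins are better known as partners of AMPA-type glutamate receptors than of calcium channels. CACNG4 (chr17:66964707-67033398), one such receptor partner, had 12.4, 8.37 and 9.44 normalized counts in untreated and 144, 185 and 189 in VPA-treated libraries. Its log2 fold change was 4.08 ± 0.20 (SE, n = 3 each, adjusted p = 1.48e-13, edgeR). CACNG5 had 22.8, 25.1 and 22.0 in untreated and 177, 187 and 180 in VPA-treated libraries, at 2.95 ± 0.14 (SE, adjusted p = 1.00e-13, edgeR). CACNG7 had 2.07, 1.05 and 2.10 in untreated and 49.8, 51.0 and 71.7 in VPA-treated libraries, at 4.95 ± 0.37 (SE, adjusted p = 1.49e-10, edgeR). CACNG7 passed the filter on low counts through the VPA-treated libraries alone, so it had to differ. CACNG4 and CACNG5 were separated between conditions by a wide margin. CACNG8, the receptor partner of hippocampus, had 330.0, 329.5 and 335 in untreated and 485, 508 and 489 in VPA-treated libraries. It was higher by 0.58 ± 0.065 (SE, adjusted p = 1.02e-07, edgeR), and its share of the family level per kilobase went from 83.2% ± 2.8 to 38.8% ± 2.8 (SD, n = 3 each). CACNG6, a gamma subunit of calcium channels, had 14 and 17 reads and was not tested. CACNG1, the skeletal muscle gamma subunit, and CACNG2 had 1 read each, and CACNG3 was listed at 0 in all libraries.

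Sodium channel beta subunits are small membrane proteins of the immunoglobulin type that modulate gating and cell adhesion. SCN4B had 27.9, 26.2 and 31.5 normalized counts in untreated and 169, 190.5 and 185 in VPA-treated libraries, a log2 fold change of 2.67 ± 0.14 (SE, n = 3 each, adjusted p = 3.90e-13, edgeR). SCN3B had 32.1, 29.3 and 37.8 in untreated and 89.97, 111 and 107 in VPA-treated libraries, at 1.63 ± 0.16 (SE, adjusted p = 1.09e-08, edgeR). SCN2B had 34.1, 27.2 and 22.0 in untreated and 71.8, 72.2 and 89.9 in VPA-treated libraries, at 1.48 ± 0.18 (SE, adjusted p = 3.64e-07, edgeR). None of these genes overlapped between conditions, where every VPA-treated library lay above every untreated library for 34.8% of all tested genes. Per kilobase, SCN4B went from 16.6% ± 1.1 to 36.6% ± 0.34 (SD, n = 3 each) of the family level.

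Pore-forming and auxiliary genes were then compared as summed levels per kilobase within each library. Pore-forming genes summed to 312 to 336 normalized counts per kb in untreated and 632 to 694 in VPA-treated libraries, and auxiliary genes to 421 to 426 and 827 to 846. The ratio of auxiliary to pore-forming levels was 1.27 to 1.35 in untreated and 1.19 to 1.33 in VPA-treated libraries, ranges that overlap. The ratios inside each channel type moved apart. Alpha2delta per calcium channel pore went from 1.51 ± 0.074 to 1.03 ± 0.10, and beta per calcium channel pore from 1.23 ± 0.086 to 0.86 ± 0.044 (SD, n = 3 each). Sodium channel beta per pore went the other way, from 0.446 ± 0.0095 to 0.608 ± 0.041. In all 3 ratios the conditions did not overlap. T-type genes made up 82.1% of the calcium channel pore level in untreated and 79.9% in VPA-treated libraries. The ratios compare summed RNA levels of whole families and are not numbers of subunits per channel. These sums over chosen genes were given no test. With merged exon lengths in place of canonical transcripts, the auxiliary to pore-forming ratio in VPA-treated over untreated libraries was 1.03 in place of 0.978. Its direction thus depends on the length used. With no length scaling the auxiliary to pore-forming ratio was 0.942 to 0.984 in untreated and 0.747 to 0.845 in VPA-treated libraries, without overlap.

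Set against all genes, the low level of many members has to be kept in view, since genes at low counts were called up-regulated more often. Under a mean of 100 normalized counts 9 of 12 tested members were up-regulated, against 29.1% of all genes of that level. Without genes that passed the filter through the VPA-treated libraries alone it was 5 of 8 members, against 19.8%. From 100 to 500 it was 7 of 17 members, against 13%, and from 500 upwards 1 of 3, CACNA2D2, against 1.44%. Across the 32 tested members the log2 fold change went down with the untreated level (Spearman rho = -0.70, across genes that share the same libraries) and less with the mean over 6 libraries (rho = -0.46). The fold change holds the untreated level in its denominator, so the first of these is negative in part by construction. Both also include SCN1A, SCN3A, CACNA1I and CACNG7. These passed the filter through the VPA-treated libraries alone, so they had to lie at a low untreated level with a high fold change. Gene span (rho = -0.16) and transcript length (rho = 0.19) showed little relation.

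**Figure D3:**
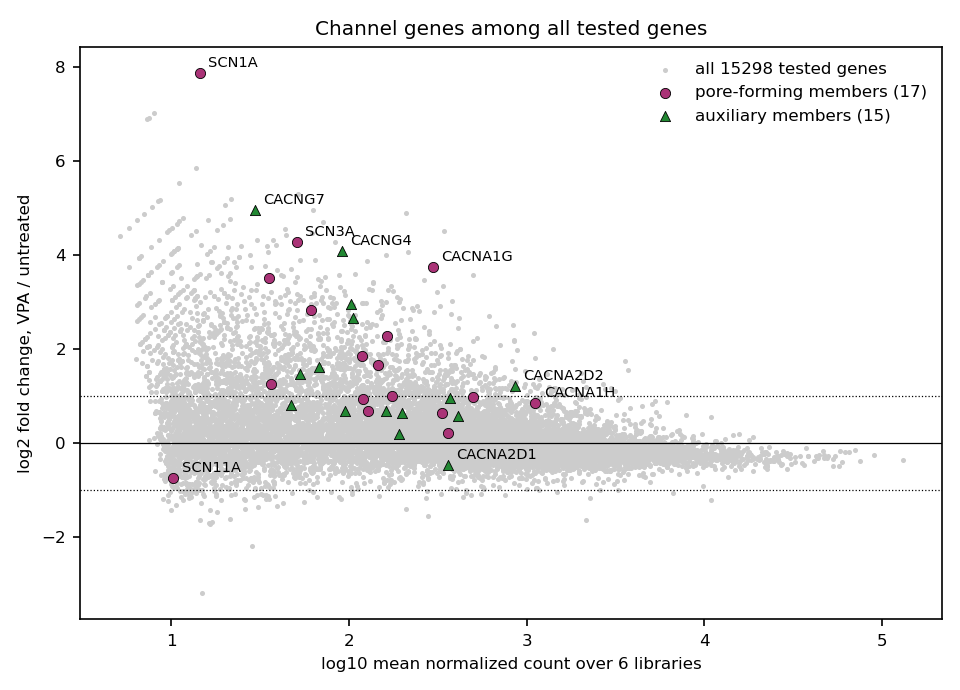
Log2 fold change against mean normalized count (log10 axis, 6 libraries) for all 15298 tested genes in grey, with 17 pore-forming members as circles and 15 auxiliary members as triangles. Members with few counts lie highest, as do other genes of low count, and CACNA2D2 and CACNA1H are the members farthest right.

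Several members are neighbours in the genome, a property the symbols do not use. On chromosome 2, SCN3A, SCN2A, SCN1A, SCN9A and SCN7A lie within 1407 kb (chr2:165087526-166494249). The first 4 were up-regulated, against 12% of all tested genes, and SCN7A was too low to test. SCN1A-AS1, antisense to SCN1A and SCN9A, was listed at 0 in both conditions. On chromosome 17, CACNG5 and CACNG4 were up-regulated beside CACNG1, which stayed at 0 or 1 read, within 222 kb. On chromosome 19, CACNG7 was up-regulated, CACNG8 higher by less, and CACNG6 too low to test, within 103 kb. SCN4B and SCN2B on chromosome 11, within 43 kb, were both up-regulated. In all, 20 members fall into 7 such groups with gaps under 1 Mb.

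RefSeq promoter windows of 300 bases, of which the sequences above show the first 250, were at hand for 29 members. CACNA1G, CACNA1H, CACNA2D4, CACNG1, CACNG2, CACNG4, CACNG5, CACNG7, CACNG8, SCN3A, SCN3B and SCN4A were among the 15 with no entry. Of the 17 up-regulated members 10 had an entry. At least 1 window with an observed to expected CpG ratio of at least 0.6 was found for 5 of these 10. It was found for 11 of 11 tested members with an entry that were not up-regulated, against 87.4% of tested genes with an entry. A gene with several windows had more than 1 occasion to count. By window it was 5 of 13 and 15 of 21, against 75.1% of the windows of tested genes. The up-regulated members without such a window were CACNA1I, SCN1A, SCN2A, SCN2B and SCN4B, and those with one were CACNA1B, CACNA1C, CACNA2D2, HCN4 and SCN9A. Of these, CACNA1I and SCN1A passed the filter on low counts through the VPA-treated libraries alone. The GC box GGGCGG was found on either strand in 25 of 43 windows of members, against 45% of all 35116 windows in the table and 65.1% of those of tested genes. The TATA box TATAAA was found on either strand in 2 of 43 windows, of SCN2A and SCN10A, against 11.5% of all and 6.36% of those of tested genes. The left part of the RE1 element bound by the repressor REST, TTCAGCACC, was found on either strand in 1 window, of CACNG3, against 0.376%, and the right part of that element in 0, against 0.259%. These matches are descriptions of the windows.

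Genes for channel partners included both higher and lower ones. A list of 63 genes for proteins that bind or resemble these channels had 41 tested members, of which 15 were up-regulated, 13 more were higher and 5 were lower at an adjusted p under 0.05, with a median log2 fold change of 0.68. Over all tested genes 12% were up-regulated, 32.9% higher, those included, and 30% lower. REM1 and UNC80, both up-regulated, passed the filter through the VPA-treated libraries alone. FGF13, L1CAM, FLNA and NALF2 lie on chromosome X, whose listed protein-coding genes had no read, so their 0 counts give no information. The comparison of these shares with those of the channel genes was not tested.

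Among sodium channel partners, of which 14 of 17 were tested, 4 were up-regulated, against 12% of all tested genes. NFASC, an adhesion protein of the axon initial segment and node, had 51.7, 61.7 and 67.1 normalized counts in untreated and 609, 632 and 597 in VPA-treated libraries, a log2 fold change of 3.35 (adjusted p = 2.39e-17, edgeR). CNTN1, a contactin of the same sites, went from a mean of 306 to 1399 (log2 fold change 2.19, adjusted p = 3.05e-17, edgeR). NRCAM was up-regulated at 1.11 and FGF12, an intracellular modulator of sodium channels, at 1.01. CALM2, a calmodulin gene, was lower by a log2 fold change of -0.22 (adjusted p = 6.92e-05, edgeR).

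Among calcium channel partners 17 of 22 were tested and 8 were up-regulated, against 12% of all tested genes. RIMS2, an active zone protein that binds calcium channels, had 17.6, 17.8 and 12.6 normalized counts in untreated and 135, 138 and 146 in VPA-treated libraries, a log2 fold change of 3.12 (adjusted p = 6.53e-13, edgeR). RIMS3 was up-regulated at 1.03. GEM, a small GTPase that inhibits calcium channels, was up-regulated at 1.93, the adaptor genes STAC and STAC2 at 1.71 and 1.45, and the calcium sensor gene CABP1 at 1.61. CACHD1, related to the alpha2delta genes, was lower at -0.27 (adjusted p = 1.12e-05, edgeR), and so was PPP3CB, a calcineurin subunit, at -0.14 (adjusted p = 0.0189, edgeR). Of 8 HCN partners 3 were tested, none was up-regulated, 2 were higher and KCTD3 was lower at -0.21 (adjusted p = 8.55e-05, edgeR).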

How the data were processed

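RNA-seq read counts per gene, as deposited by the authors, were used for 3 untreated and 3 VPA-treated libraries. Per the methods and the submitters' processing notes, reads were cleaned with SOAPnuke, aligned to hg38 with STAR (2.7.10b in the notes) and counted with HTSeq, for which the notes give 2.0.1 and the methods a different version. The annotation and strand setting are not given in the sources used here. Rows that name no gene (no feature 6.80% to 7.69% of reads, ambiguous 1.97% to 2.1%) were left out. Genes were filtered with filterByExpr (count minimum 10), scaled with TMM and tested with edgeR 4.0.16 in R 4.3.3 (robust quasi-likelihood fit, prior count 0.125, Benjamini-Hochberg over all tested genes). The SE is the log2 fold change over the root of F. DESeq2 1.42.0, other scalings, filters, a replicate block and left-out replicates were the alternatives. Levels per kb used canonical transcripts of GENCODE 44. Coordinates and promoters are from RefSeq GRCh38.p14. Same-numbered libraries had deviations correlated at 0.139, 0.0214 and 0.0805, so the numbers were not taken as pairs. The fit was tested on simulated data.

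The members and lists were chosen with earlier results of these data known. Values in every library were given for members past both thresholds, for lower members and for the member with the highest level per kb of each family, and a few others close to a threshold (SCN11A, CACNB4) were added after their values were seen. Up to 6 partner genes per list were named by smallest p, and lower partners were added. Some members are not reported here.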

Additional observations from a re-analysis of the deposited data

How the results depend on the processing

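Of 442 comparisons of single members under alternative settings, 434 kept their direction and their side of the threshold, and none reversed. HCN3 was lost under 2 settings, CACNB4 passed under 5 and SCN11A under 1. Up-regulated genes over all genes numbered 1179 with at least 10 counts in every library and 1149 with glmTreat, and 1874 to 1961 without 1 replicate. Down-regulated genes numbered 38 with library totals, 162 without a filter, 43 with at least 10 counts and 8 with glmTreat, and 83 to 110 without 1 replicate. Members down-regulated were 0 to 1, and lower 1 to 2, without 1 replicate. In each case SCN11A without VPA replicate 3 was the added gene. The median log2 fold change of pore-forming members was 1.69 with DESeq2, 1.38 with library totals, 1.76 without a filter and 1.03 with at least 10 counts, and 1.17 to 1.49 without 1 replicate. That of auxiliary members was 1.19 without a filter. With other gene lengths, chosen after seeing the data, beta per calcium channel pore (VPA-treated over untreated) was 0.634 without length scaling. Sodium channel beta per pore was 1.67 with merged exon length and 1.64 without length scaling, and auxiliary per pore-forming was 1.03 and 0.844. The replicate number as a block gave 1835 up-regulated genes, 10 pore-forming and 7 auxiliary, and added CACNB4 (adjusted p = 0.0384, edgeR). Among all genes past the adjusted threshold, 52.3% were higher with TMM, 63.0% with upper quartile and 73.9% with library totals, the median of all genes being 0.0058, 0.071 and 0.14 on the log2 scale. With no filter on low counts 12 pore-forming members were up-regulated, CACNA1E, CACNA1S and SCN7A being added and SCN9A lost. Genes with few counts were limited by depth, and CACNA1I, CACNG4, CACNG7, SCN1A and SCN3A could not be tested with at least 10 counts in every library.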

Other observations

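Among 17 genes for NALCN and related channels, which carry leak, proton and sperm calcium currents, 8 were tested and 3 were up-regulated. The shares over all genes were 12%, and 29.1% at means under 100 normalized counts. These 3, HVCN1, UNC80 and CATSPERG, had means of 35.6, 9.06 and 16.3 over the 6 libraries. HVCN1, the voltage-gated proton channel, had 17.6, 15.7 and 21.0 normalized counts in untreated and 55.5, 46.2 and 57.4 in VPA-treated libraries (log2 fold change 1.55, adjusted p = 1.10e-06, edgeR). UNC80, a subunit of the NALCN complex, was up-regulated at 2.41 from 2.07 to 4.18 normalized counts in untreated libraries, but it passed the filter on low counts through the VPA-treated libraries alone and so had to differ. CATSPERG was up-regulated at 1.61, while CATSPERE, another auxiliary subunit of the sperm calcium channel, was lower at -0.77 (adjusted p = 0.00518, edgeR).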
